A study of Homo sapiens with 2 samples.

Results

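The SOXC genes SOX4, SOX11 and SOX12, the 3 members of group C of the SOX transcription factor family, were followed in RNA sequencing data from 2 human lines of acute lymphoblastic leukemia of B-cell precursors (BCP-ALL). They were taken by symbol, and all 3 were found among the 57773 gene IDs of the count files and among the 19145 genes that reached 10 reads in REH or in 697. REH is positive for the ETV6/RUNX1 fusion and is known to have lost its remaining ETV6 allele, whereas 697 lacks ETV6/RUNX1. No drug is named for either line, both were grown in RPMI medium with fetal bovine serum, and each gave 1 library, so there are no replicates. The lines come from different leukemias and differ in far more than the fusion, so a difference between them cannot be tied to ETV6/RUNX1 from these data.

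SOX proteins bind DNA through an HMG box, a domain that bends the double helix, and the SOXC proteins add a transactivation domain at the C-terminal end. SOX4 is needed for the development of early B cells and is active in lymphoid precursors and many tumors. SOX11 acts mainly in neural and other embryonic progenitors, is silent in normal B cells and is known as a marker of mantle cell lymphoma. SOX12 is widely expressed at a lower level and is the weakest activator of the group.

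All 3 genes were expressed in both lines, and their differences between the lines were not of the same sign. SOX11 was 2.29-fold higher in REH, whereas SOX4 was 1.31-fold and SOX12 was 1.53-fold higher in 697. These differences all exceeded counting error, but none reached the 4-fold (log2 ratio of 2) used as a threshold, so 0 of the 3 members were called. Among all genes compared, 20.7% passed this threshold, with 12.5% higher in REH and 8.15% higher in 697. Without replicates there is no test of the lines and no p-value, and each interval or pair of limits given is at 95% and covers counting error only. The log2 ratio of REH over 697 is also called the log2 difference, positive where REH was higher. In bulk RNA, fewer cells that express a gene and less of its RNA per cell cannot be told apart.

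The genes are alike in structure. Each has a single exon, on the plus strand, so that reads cannot show splicing and cannot tell spliced from unspliced RNA. In GENCODE 44 on GRCh38, SOX4 (ENSG00000124766) lies on chromosome 6 from 21593751 to 21598619, SOX11 (ENSG00000176887) on chromosome 2 from 5692384 to 5701385, and SOX12 (ENSG00000177732) on chromosome 20 from 325552 to 330224. Coding sequence makes up 29.2% of the exon in SOX4, 14.7% in SOX11 and 20.2% in SOX12, and the rest is untranslated.

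The proteins translated from these exons have 474 residues in SOX4, 441 in SOX11 and 315 in SOX12. Over whole proteins, SOX4 was 51.1% identical to SOX11 and 59.2% identical to SOX12, and SOX11 was 53.5% identical to SOX12. The most similar window of 79 residues, which lies over the HMG box, began at residue 51 of SOX4, residue 41 of SOX11 and residue 32 of SOX12. In it 75 residues were identical between SOX4 and SOX11, 71 between SOX4 and SOX12, and 69 between SOX11 and SOX12. The C-terminal 33 residues shared 27 positions between SOX4 and each of the others and 25 between SOX11 and SOX12. In each pair, both stretches had a higher share of identical residues than the whole proteins. The window was picked as the most alike of its length, and no other stretch of 33 residues was scored.

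This likeness hardly reaches the level of reads. Of all stretches of 31 bases in the transcripts, 99.4% in SOX4, 99.6% in SOX11 and 99.8% in SOX12 occurred once in the main chromosomes of hg38. Only 3, 5 and 8 such stretches, respectively, were shared with another SOXC gene. Reads lost to multimapping at identical copies can therefore affect only a small part of these genes, whatever share of multimapping reads a library had (10.8% in REH and 15.4% in 697).

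Promoter sequences from RefSeq (GRCh38.p14, 250 bases before to 50 after the start, plus strand) were matched for 2 of the 3 members, SOX4 (chr6:21593501-21593800) and SOX12 (chr20:325302-325601), the pair that was higher in 697. The promoter sequences used held none for SOX11, so the pair was not picked by its ratios. The windows differ in composition, and a relation of this to the levels was not tested. Capitals mark the octamer ATGCAAAT, which POU factors bind, and the CCAAT box in either orientation (CCAAT or ATTGG).
SOX4: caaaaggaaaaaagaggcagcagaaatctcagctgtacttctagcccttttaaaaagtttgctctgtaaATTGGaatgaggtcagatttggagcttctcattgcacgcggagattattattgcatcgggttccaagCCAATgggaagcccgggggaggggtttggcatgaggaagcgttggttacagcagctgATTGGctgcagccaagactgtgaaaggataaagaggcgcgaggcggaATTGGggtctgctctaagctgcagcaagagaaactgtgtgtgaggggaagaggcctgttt
SOX12: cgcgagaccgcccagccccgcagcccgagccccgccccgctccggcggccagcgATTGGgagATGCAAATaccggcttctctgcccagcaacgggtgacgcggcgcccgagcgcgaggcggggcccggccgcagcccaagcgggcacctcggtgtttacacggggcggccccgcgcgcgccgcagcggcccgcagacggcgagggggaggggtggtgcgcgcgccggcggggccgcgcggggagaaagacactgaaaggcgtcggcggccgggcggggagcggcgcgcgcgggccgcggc

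The SOX4 window had 49.3% G and C and 8 CpG dinucleotides, fewer than the median of 14 over all 35116 promoters, and the SOX12 window had 80.3% and 54 CpG dinucleotides, more than 99.5% of promoters. The CCAAT box occurred 4 times in SOX4 and 1 time in SOX12, and 34.6% of all promoters hold it. The octamer was found once, in SOX12, 188 bases before the start, and 1.77% of promoters hold it. The RUNX motif was searched as TGTGGT and as TGCGGT, and the SOX motif as ACAAAG and as ACAAT, all on both strands. None of these letters occurred in either window, where 13.1%, 7.29%, 16.1% and 27.4% of promoters hold them. The octamer and the CCAAT box were added after the windows had been read.

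SOX4 was the most abundant member by far. It had 15033 reads in REH and 14461 reads in 697. After TMM scaling, which adjusts the library totals for differences in RNA composition, this was 299 CPM, the read count scaled to a fixed library total, in REH (interval 294 to 304) and 391 CPM in 697 (385 to 398). The level was high in both lines, with a log2 ratio of REH over 697 of -0.39 (interval -0.42 to -0.36). Most of this small difference rests on the scaling, since it was -0.08 with unscaled totals, a value whose direction was the same. In size, 66.8% of protein-coding genes had a larger log2 ratio than SOX4.

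SOX11 had 5832 reads in REH and 1875 reads in 697. These are 116 CPM in REH (interval 113 to 119) and 50.7 CPM in 697 (48.5 to 53.1). The gene was thus well above the detection floor of 3 reads (0.0597 CPM in REH and 0.0812 CPM in 697) in the fusion-negative line too. The log2 ratio was 1.19 (interval 1.12 to 1.27), and it was 1.50 with unscaled totals. Of the 13489 protein-coding genes compared, 16.8% had a higher ratio than SOX11, so its difference is not among the extreme ones of these libraries.

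SOX12 had 3489 reads in REH and 3915 reads in 697, the lowest of the members in REH but not in 697. The levels were 69.4 CPM in REH (interval 67.1 to 71.8) and 106 CPM in 697 (103 to 109). Its log2 ratio was -0.61 (interval -0.68 to -0.54), and it was -0.30 with unscaled totals. SOX12 shared the direction of SOX4 under both scalings.

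**Figure D1:**
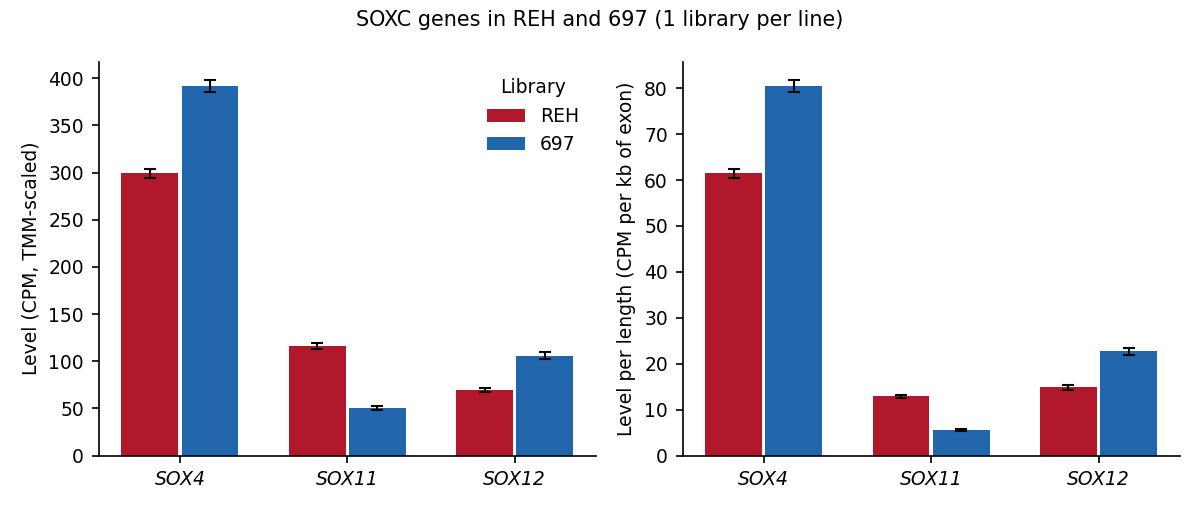
Levels of the SOXC genes in the REH and 697 libraries, in CPM (left) and in CPM per kb of exon (right). Bars are the single library of each line and error bars are 95% Poisson intervals of the read count. SOX11 is higher in REH (116 against 50.7 CPM), SOX4 and SOX12 are higher in 697, and SOX4 is the highest member in both.

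The relation between the members does not depend on how the libraries are scaled. The number of SOX11 reads per SOX4 read was 2.99-fold higher in REH than in 697, and per SOX12 read it was 3.49-fold higher (log2 1.80, interval 1.70 to 1.90). The number of SOX4 reads per SOX12 read differed by 1.17-fold only (log2 0.22, interval 0.15 to 0.30). SOX11 therefore stood apart, while the balance of SOX4 and SOX12 was nearly the same in both lines.

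To compare the members with each other, levels were divided by exon length. Per kb, SOX4 reached 61.4 CPM in REH (interval 60.4 to 62.4) and 80.4 CPM in 697 (79.1 to 81.7). SOX12 followed with 14.9 CPM per kb in REH (14.4 to 15.4) and 22.7 CPM per kb in 697 (22.0 to 23.4). SOX11 came last with 12.9 CPM per kb in REH (12.6 to 13.2) and 5.64 CPM per kb in 697 (5.39 to 5.90). The order was thus SOX4, SOX12, SOX11 in both libraries, and neighbors in it did not overlap in their intervals. In REH, however, SOX12 and SOX11 were close, and their order turned to SOX11 (87.7 CPM per kb) above SOX12 (73.5 CPM per kb) when the coding length was used instead. That setting divided all reads of a gene, those in untranslated parts included, by the coding length. It raises most the gene with the smallest coding share, SOX11 (14.7%), and does not measure reads over the coding sequence.

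SOX4 exceeded SOX11 by 4.77-fold per kb in REH (interval 4.62 to 4.91) and by 14.3-fold in 697 (13.6 to 15.0). It exceeded SOX12 by 4.14-fold in REH (3.99 to 4.29) and by 3.55-fold in 697 (3.42 to 3.67). Of the summed level per kb of the 3 genes, SOX4 made up 68.9% in REH and 74.0% in 697, SOX12 16.7% and 20.9%, and SOX11 14.5% and 5.19%. The sum itself was 89.2 CPM per kb in REH and 109 CPM per kb in 697 (log2 difference -0.29). Its direction turned with unscaled totals, to 99.2 CPM per kb in REH and 97.7 CPM per kb in 697 (log2 difference 0.021), so these data do not settle in which line the total was higher.

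Against other protein-coding genes, the level of SOX4 per kb was higher than that of 97.2% of the genes compared in each library, at rank 381 in REH and rank 382 in 697. SOX12 exceeded 78.5% of genes in REH and 85.4% in 697. SOX11 exceeded 74.9% in REH and 52.4% in 697, close to the median gene there. These ranks place SOX4 among abundant transcripts and SOX11 of 697 in the middle of the range.

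**Figure D2:**
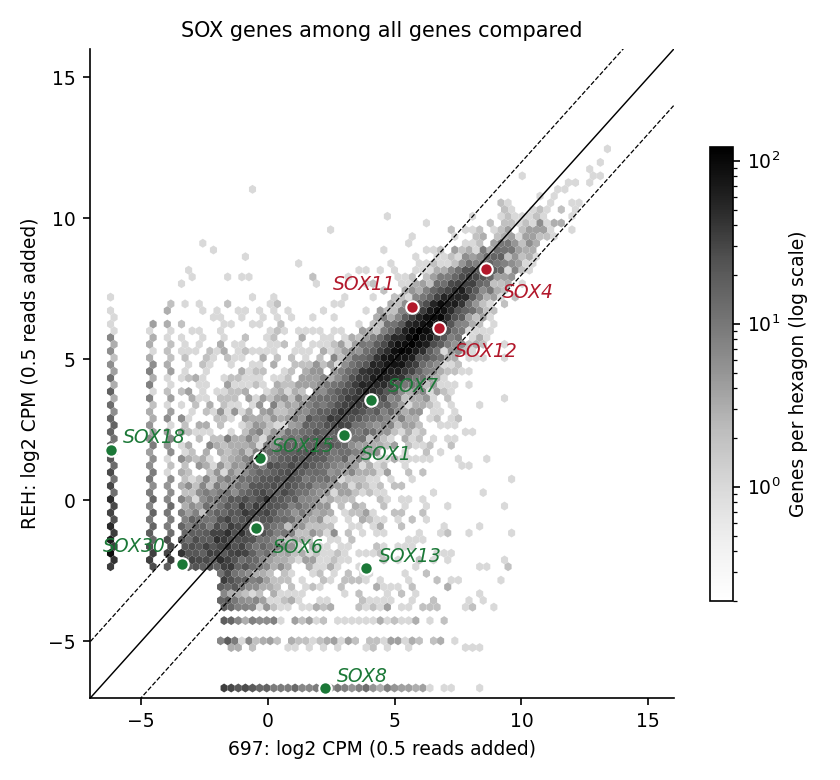
log2 CPM in 697 (x axis) against REH (y axis) for genes that reached 10 reads in either line, Y-linked genes and XIST left out. Gray hexagons count genes on a log scale, red points are the SOXC genes and green points the other SOX genes compared. The solid line marks equal levels and the dashed lines a log2 ratio of 2 in size. The SOXC genes lie between the dashed lines, and SOX8, SOX13 and SOX18 lie outside them.

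Reads of the SOXC genes were spread over both strands, with 48.8% to 52.2% on the first of the strand settings. The sum of the strand columns equalled the pooled count for all 3 genes in both libraries, so no read was set aside for a gene on the opposite strand. GENCODE 44 places 1 overlapping gene at each member. For SOX12 it is NRSN2-AS1 (224 reads in REH and 154 in 697), and for SOX11 a lncRNA without a symbol, ENSG00000242540 (32 and 18 reads). That of SOX4 is not among the IDs of the files. ENSG00000242540 starts inside SOX11 on the same strand. Reads shared by these genes would be set aside as ambiguous in every column, and the sum of the columns cannot show their loss. Because the counts carry no strand information, reads of an antisense transcript cannot be told from those of the SOX gene.

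The group was then set beside the other members of the SOX family, in which the letters A to H denote groups by likeness of the HMG box. Of 16 other SOX genes (the Y-linked one was left out), 8 reached 10 reads in REH or 697 and 5 had no read in either. The SOXC genes held 91.1% of the summed SOX level per kb in each library, so they were the main SOX transcripts of both lines. The next was SOX7, an endothelial and early hematopoietic SOXF factor, with 3.63 CPM per kb in REH and 5.17 CPM per kb in 697.

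Of these 8 genes, 1 was called higher in REH and 2 were called higher in 697, beside the background of 20.7% for either direction. SOX18, a SOXF regulator of vessel and lymphatic development, had 175 reads in REH and 0 in 697, at least 42.9-fold higher in REH against the floor of 3 reads. The 3 reads are a one-sided limit, and the wider 2-sided counting interval of SOX18 began lower, at a log2 difference of 5.11. SOX8, a SOXE gene of glia and gonads, had 0 reads in REH and 174 in 697, at least 78.9-fold higher in 697 against the same floor, with a 2-sided interval that ended at a log2 difference of -5.99. SOX13, a SOXD gene known from a T cell lineage, had 9 reads in REH and 543 in 697 (log2 difference -6.28, limits -7.50 to -5.42).

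The other 5 were below the threshold. SOX15 had 142 reads in REH and 29 in 697 (log2 difference 1.83, limits 1.26 to 2.48), and this ratio passed 2 with unscaled totals. SOX1, a neural gene, had 253 and 294 reads (log2 difference -0.66), SOX7 587 and 614 (log2 difference -0.51) and SOX6 25 and 26 (log2 difference -0.50). SOX30 had 10 and 3 reads, too few for a direction (interval -0.66 to 3.79). The median log2 ratio of the 8 genes was -0.50 against 0.05 over all genes compared. It does not depend on the genes with 0 reads in a library. With 0.5 reads added, the single ratios ran from -8.89 for SOX8 to 8.01 for SOX18, so the median does not show a common direction. The log2 ratios of the SOXC genes were smaller in size than those of SOX8, SOX13, SOX15 and SOX18. That of SOX11 was larger in size than those of SOX1, SOX6 and SOX7. SOX30 could not be placed against SOX11, since its interval included the ratio of SOX11.

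Partners and upstream signals of SOXC proteins were inspected next. POU factors can bind DNA next to SOX proteins, beta-catenin and TCF/LEF proteins interact with SOX4 in Wnt signaling, TGF-beta signaling can induce SOX4, and syntenin (SDCBP) can stabilize the SOX4 protein. Of these 17 genes 16 were compared, of which 2 were called higher in REH and 0 higher in 697, beside a background of 20.7%. With unscaled totals 3 were called higher in REH, and such small numbers do not set the list apart. The median log2 ratio was 0.21, and it was 0.51 with unscaled totals.

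Among the POU factors and their coactivator, the 5 genes compared all had log2 ratios above 0. POU3F2, a neural POU factor, had 139 reads in REH and 0 in 697, at least 34.1-fold higher in REH against the floor of 3 reads, with a 2-sided interval that began at a log2 difference of 4.77. POU2AF1, the B cell coactivator of octamer-binding proteins, was at 255 CPM in REH and 99.9 CPM in 697 (log2 difference 1.35, limits 1.30 to 1.41). POU2F2 had 594 and 129 reads (log2 difference 1.75, limits 1.48 to 2.05), and this ratio passed the threshold with unscaled totals, at 2.06. POU3F3 was expressed in both lines, at 27.8 CPM in REH and 10.2 CPM in 697 (log2 difference 1.45, limits 1.28 to 1.62). The broadly expressed POU2F1 differed least, with 103 CPM in REH and 83.0 CPM in 697 (log2 difference 0.31).

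Of the TCF/LEF genes, TCF7 was the other gene called higher in REH, with 477 reads in REH and 6 in 697 (log2 difference 5.75, limits 4.74 to 7.32). LEF1 was abundant in both, at 595 CPM in REH and 1054 CPM in 697 (log2 difference -0.83). CTNNB1, which encodes beta-catenin, was at 102 CPM in REH and 269 CPM in 697 (log2 difference -1.41, limits -1.46 to -1.36). SMAD3, a transducer of TGF-beta signals, was at 60.2 CPM in REH and 180 CPM in 697 (log2 difference -1.58, limits -1.65 to -1.52), and the receptor gene TGFBR2 was at 232 CPM in REH and 173 CPM in 697 (log2 difference 0.42). SDCBP was at 74.1 CPM in REH and 114 CPM in 697 (log2 difference -0.62).

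Genes reported elsewhere as SOXC targets were examined as a further list of 15. Of these 11 were compared, and 0 were called in either direction, beside a background of 20.7%. The median log2 ratio was -0.04, with 5 genes above 0 and 6 below, and it was 0.27 with unscaled totals. SYK, a kinase of pre-B cell receptor signaling, was at 342 CPM in REH and 121 CPM in 697 (log2 difference 1.50, limits 1.45 to 1.55), and RAG1, a recombinase subunit, at 1535 CPM and 577 CPM (log2 difference 1.41, limits 1.39 to 1.43). RAG2, the partner of RAG1 in the recombinase, had the opposite sign (155 CPM in REH and 190 CPM in 697, log2 difference -0.30), though by no more than the 0.31 by which unscaled totals shift the median of all genes. So had CSNK1E, a kinase of Wnt signaling (154 CPM and 254 CPM, log2 difference -0.72).

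Of the genes linked to SOX11 in mantle cell lymphoma, PAX5, the B lineage factor, was at 792 CPM in REH and 1224 CPM in 697 (log2 difference -0.63). CXCR4, a homing receptor, was at 264 CPM in REH and 126 CPM in 697 (log2 difference 1.07), whereas PTK2, which encodes focal adhesion kinase, was at 106 CPM in REH and 251 CPM in 697 (log2 difference -1.25). BCL6, a germinal center repressor, had a log2 ratio of 0.72, and PDGFA had 158 and 143 reads with an interval that included 0 (-0.64 to 0.04). The listed targets thus differed in both directions.

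Targets from neural and other tissues were mostly silent. TEAD2, DCX and SEMA3C had 0 reads in both libraries, and TUBB3 had 3 reads in REH and 8 in 697. EZH2, a histone methyltransferase gene, was at 294 CPM in REH and 270 CPM in 697 (log2 difference 0.12), and DICER1 at 146 CPM and 149 CPM (log2 difference -0.04, limits -0.09 to 0.01). The neuronal targets were therefore at or near the floor in lines that both expressed SOX4 and SOX11.

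**Figure D3:**
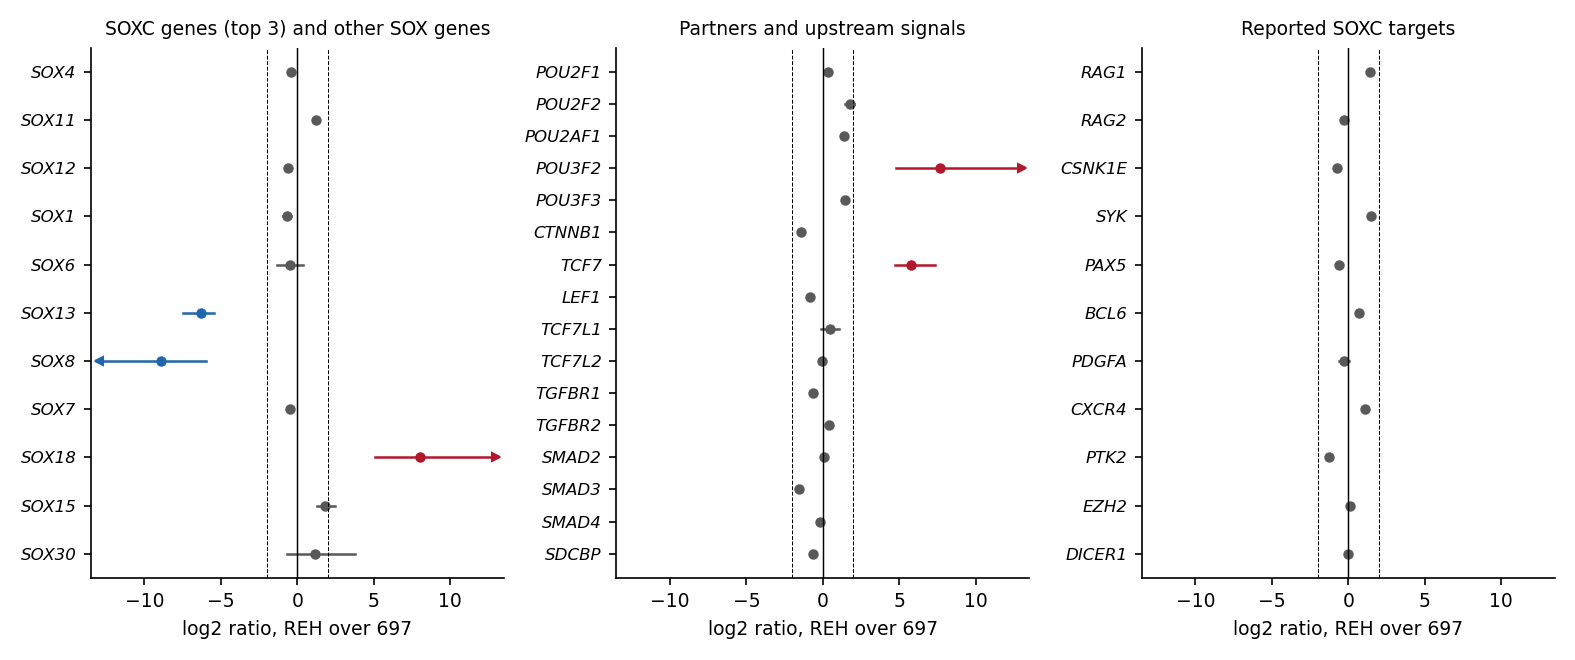
log2 ratios of REH over 697 for the SOXC and other SOX genes (left), partners and upstream signals (middle) and reported targets (right), for genes that reached 10 reads in either line. Points are ratios after 0.5 reads were added, lines are 95% counting intervals, arrows mark a side that is unbounded because a library had 0 reads, and dashed lines mark a log2 ratio of 2 in size. Red and blue points passed it, higher in REH or higher in 697. The SOXC genes lie between -0.61 and 1.19, and no reported target passes.

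Finally, the surroundings of the genes were inspected, taking annotated genes that start within 1 Mb. Around SOX4, 3 genes reached 10 reads in either line, and all 3 had log2 ratios below 0, as SOX4 had. CASC15, a lncRNA that starts 70.4 kb downstream, had 1074 reads in REH and 2090 in 697 (log2 difference -1.40, limits -1.51 to -1.30). NBAT1, a lncRNA of the same region, had only 7 and 21 reads (log2 difference -1.96). PRL, the prolactin gene, had 4 and 34 reads (log2 difference -3.38, limits -5.49 to -2.04) and was the 1 gene called, higher in 697. NBAT1 and PRL both lie within the span of CASC15, on the opposite strand. The counts carry no strand information, so their few reads cannot be told from reads of CASC15. The 3 ratios may therefore not be separate.

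Around SOX11, a region with few genes, the overlapping lncRNA ENSG00000242540 was the 1 gene compared among 15 in the files. Its log2 ratio was 0.37, with an interval that included 0 (-0.49 to 1.31). LINC01248, a lncRNA that starts just upstream of SOX11, had 2 reads in REH and 0 in 697. All others in this window had fewer than 10 reads in both libraries and were not compared. The most were the 8 reads in REH and 0 in 697 of ENSG00000236106 and of SILC1, whereas MIR7515HG had 0 and 2.

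Around SOX12, 13 genes were compared, of which 10 had log2 ratios above 0 and 3 below, beside 52.1% above 0 among all genes compared. The counting interval lay wholly above 0 for 7 of them and wholly below 0 for 2. The gene that starts nearest downstream, NRSN2, was at 24.8 CPM in REH and 22.7 CPM in 697 (log2 difference 0.13, with an interval that included 0). TRIB3, a stress-induced pseudokinase gene that starts 37.3 kb downstream, had 21994 reads in REH and 870 in 697 (log2 difference 4.22, limits 4.12 to 4.32). It was called higher in REH together with SNPH, whose 18 and 2 reads gave limits of 0.66 to 5.88, far below the threshold at the lower end. These 2 of 13 calls at SOX12 and the 1 of 3 at SOX4 stand beside the background of 20.7%, and such small numbers do not set either region apart. The median log2 ratio of the 13 genes was 0.16.

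**Figure D4:**
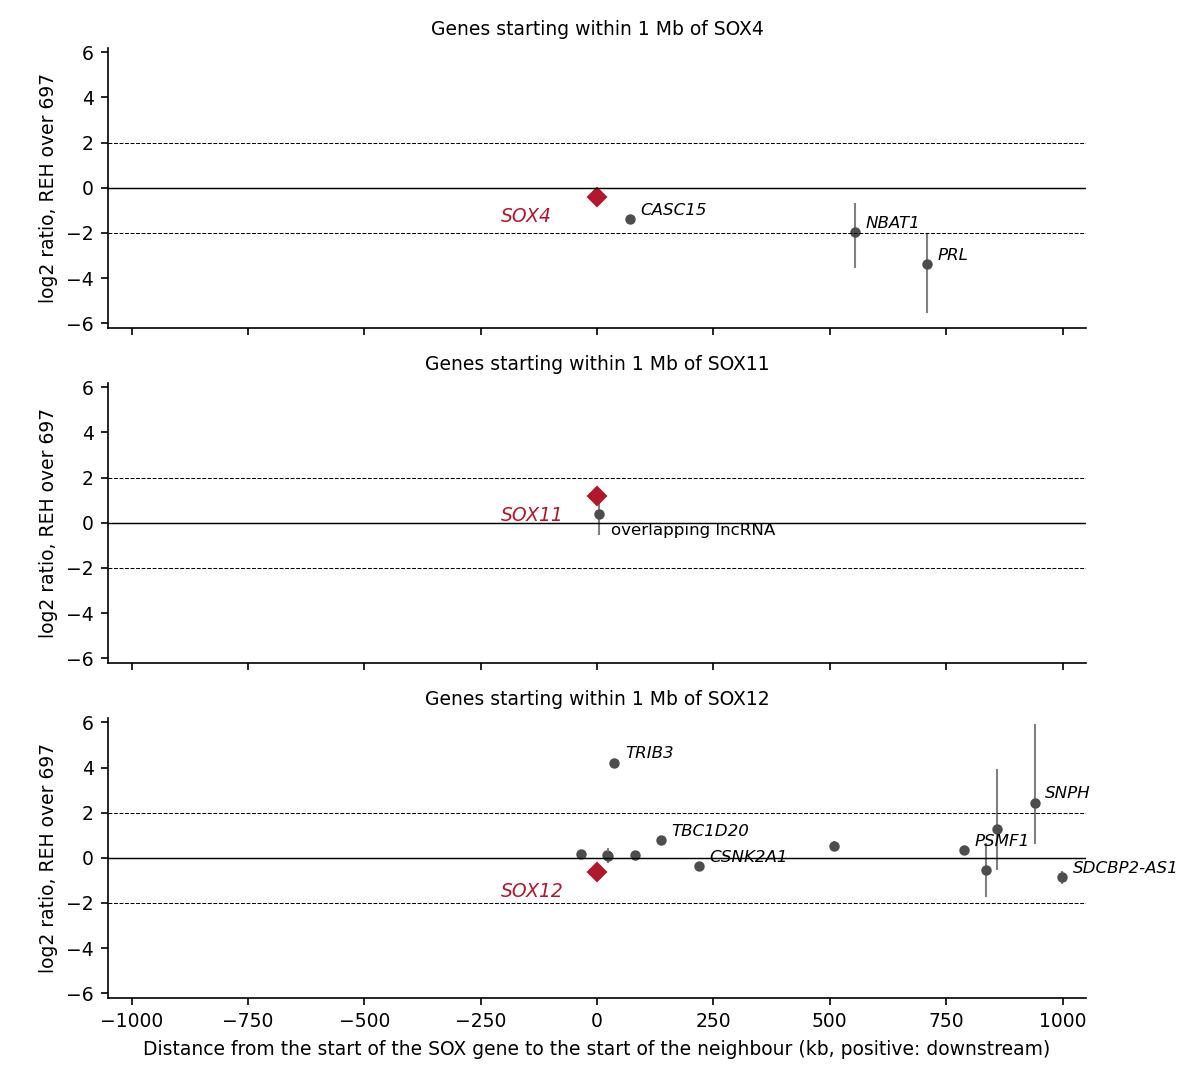
log2 ratios of REH over 697 (y axis) for genes that start within 1 Mb of SOX4, SOX11 and SOX12, by distance from the start of the SOX gene (x axis, kb, downstream positive). Red diamonds are the SOX genes, gray points the neighbors that reached 10 reads in either line, and lines their 95% counting intervals. The 3 neighbors of SOX4 lie below 0, with NBAT1 and PRL inside the span of CASC15, and TRIB3 lies at 4.22 beside SOX12.

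The protein-coding genes nearest to each member in log2 CPM over the 2 libraries were named as the most similar in level. These were CCNI, ANP32A and LMNB2 for SOX4 (distances of 0.051 to 0.094 on the log2 scale), TRIM38, MYO5C and DMAP1 for SOX11 (0.021 to 0.062), and PTPN9, SNRPB2 and TNIP1 for SOX12 (0.018 to 0.042). Within a distance of 0.1 there were 3 genes for SOX4, 6 for SOX11 and 27 for SOX12. With 2 libraries this likeness describes levels only.

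The REH library held 45188375 reads in genes and the 697 library 41097497. Markers of B cell precursors bore out the label in both lines. All 9 of the list were detected in 697, at 120 to 4433 CPM, and 8 of 9 were above the floor in REH, where the surrogate light chain gene VPREB1 had 3 reads against 10039 in 697. Of 5 T cell markers 1 passed 10 reads, CD3E with 45 in REH and 0 in 697. Of 5 myeloid markers MPO stood out with 12643 reads in REH and 12 in 697, whereas LYZ had 1 and 2 reads and ELANE 0 in both. CD14 had 29 reads in REH and 8 in 697. CSF1R had 30 and 61 (log2 difference -1.46), opposite in sign to MPO. The erythroid markers summed to 0.418 CPM in REH and 0.379 CPM in 697, and the neural markers to 2.11 and 4.25 CPM. The part of these differences in the SOXC values was not tested.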

How the data were processed

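Total RNA of REH and 697 cells, 1 library each, was examined. The files deposited by the authors hold raw read counts per gene from STAR in 3 columns, for reads on either strand and on each strand. The study's methods give poly(A) purified TruSeq libraries and alignment to hg38, whereas the labels give ribodepleted, stranded libraries and the submitters' processing notes name hg19. The annotation used for counting is not given in the sources used here. Reads on either strand were used, because the strand columns had near-equal totals (50.1% in REH and 50.2% in 697 on the first). The 4 rows of unmapped, multimapping, unassigned and ambiguous reads were left out of totals, which leaves 70.7% of reads in REH and 69.7% in 697.

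Symbols, positions and exon lengths came from GENCODE 44 (GRCh38), matched by gene ID for 51996 IDs, and 5777 IDs did not match. Exon lengths may differ from those used in counting. Genes that reached 10 reads in either library were compared after TMM scaling in edgeR 4.0.16 (factors 1.11 and 0.899), with 0.5 reads added for log2 ratios. Intervals of ratios are exact Clopper-Pearson intervals of the share of reads from REH, those of levels exact Poisson intervals, and those of ratios between members normal intervals of the log odds ratio, all at 95% and for counting error only. The count tests of edgeR and DESeq2 need replicates, so no test was made. The ratios and their intervals were tested on simulated counts with unscaled totals, so the TMM scaling was not covered by that test. The members and gene lists were chosen with earlier results of these data known. Named genes are the members, list genes that were called or lie at the ends of a subgroup, neighbors that were called or adjoin a member, and the 3 nearest genes in level, with a few more as examples. Alternatives were DESeq2 1.42.0 size factors, unscaled totals, other TMM gene sets, 5 reads added, each strand column, other minimum read numbers and thresholds, and coding length. R 4.3.3, Python 3.11.15 with pandas 2.3.3, scipy 1.17.1 and Biopython 1.88 were used. No protein sequence table was used here, and no promoter of SOX11.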

Additional observations from a re-analysis of the deposited data

How the results depend on the processing

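No paired analysis was possible because REH and 697 have 1 library each, and for the same reason no replicate could be left out. The log2 ratios of SOX4, SOX11 and SOX12 kept their direction under all 7 alternatives run for them. They left their counting intervals only with unscaled totals, at -0.081, 1.50 and -0.30, a setting that moved the median of all genes by 0.31. No member passed a log2 ratio of 2 under any alternative, and SOX11 alone passed 1. The summed level per kb of the 3 genes turned from a log2 ratio of -0.29 to 0.021 with unscaled totals and was -0.31 with DESeq2 size factors, alternatives added after seeing the data. The cause of the shift with unscaled totals was not tested.

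With unscaled totals SOX15 and POU2F2 passed the threshold, so that 2 other SOX genes and 3 partners were higher in REH, and TCF7L2, SMAD4, RAG2, PDGFA and DICER1 turned from below to above 0. There were 2 other SOX genes higher in REH with the second strand column too. At a log2 ratio of 1, 3 other SOX genes, 5 partners and 3 targets were higher in REH, 2 partners and 1 target were higher in 697, and of all genes 4293 were higher in REH and 3336 in 697. With a minimum of 1 read 3592 genes were higher in REH and 4410 in 697, so the excess in REH (2396 against 1560) turned, and with a minimum of 50 reads 1477 were higher in REH and 1036 in 697. With all reads of a gene divided by its coding length, SOX4 had 210 CPM per kb, SOX11 87.7 and SOX12 73.5 in REH. In 697 these levels were 275, 38.4 and 112. The shares were then 56.6%, 23.6% and 19.8% in REH, and 64.7%, 9.01% and 26.3% in 697. By raw reads the shares were 61.7%, 23.9% and 14.3% in REH, and 71.4%, 9.26% and 19.3% in 697. Depth did not limit the members, whose counts lie far above the floor, but the spread between cultures is unknown.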
